A study of Mus musculus with 8 samples.

Results

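Replication-dependent histone genes are the clustered genes that supply H1, H2A, H2B, H3 and H4 protein to newly made DNA. They were taken here as every gene whose older mouse name starts with Hist1h, Hist2h, Hist3h or Hist4h, which gave 70 genes. For 40 of them a probe carried a RefSeq accession of that gene alone, and 36 were bright enough to test. Over all genes 21368 had such a probe and 16619 were tested. Genes without such a probe may have others on the array that were not named this way. In hippocampus after 10 weeks of hydroxyurea none of the 36 passed the test, 23 had higher and 13 lower mean values than in untreated mice, and their median log2 difference was 0.028. No difference between the groups exceeded the spread between mice in the test, and 1 treated mouse held the highest value of 21 of the 36 genes.

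Hippocampal RNA of 8 female mice was hybridised to 1-colour Agilent arrays, 1 array per mouse. All were nontransgenic littermates of APPswe695/PSEN1dE9 mice, kept on a C57BL/6J background, so neither group carries the transgenes. The Control group (n = 4) was untreated and 19 weeks old. The Hydroxyurea group (n = 4) received 45 mg/kg/day in drinking water for 10 weeks, and treatment started at an age of 9 to 14 weeks. In this group Hydroxyurea 1 and 2 were 24 weeks old while Hydroxyurea 3 and 4 were 19 weeks old. Cages held several mice each, and the labels do not say which mice shared one. Values are log2 processed signals from which the array's own 75th percentile was subtracted, so a value of 0 is the signal that 75% of spots stay below. A difference is the Hydroxyurea mean minus the Control mean on this scale.

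In dividing cells these genes are transcribed mainly in S phase, and their mRNAs end in a stem-loop that is bound by the protein Slbp rather than in a poly(A) tail. Hydroxyurea lowers the supply of deoxynucleotides by blocking ribonucleotide reductase, and when DNA synthesis stops in cultured cells replication-dependent histone mRNAs are rapidly degraded. Most cells of the adult hippocampus are postmitotic neurons and glia, with division in the neural precursors of the dentate gyrus and in glial precursors. Clustered histone genes are also known to give some polyadenylated mRNA in non-dividing cells. Labelling of cRNA from total RNA usually starts at the poly(A) tail, so the form of the transcript bears on what an array spot reads. The labels do not state the primer, and its part in these values was not tested.

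The promoters of these genes carry short elements that differ between families, and 5 are printed to show them. Each run is the 250 bases before the annotated start, from RefSeq (GRCm38.p6), 5′ to 3′ on the strand of the gene. Capitals mark exact matches, on either strand, to 5 motifs. The letters TATAAA stand for the box bound by the general transcription machinery. The letters CCAAT are bound by the factor NF-Y. The octamer ATTTGCAT is bound by Oct1, the product of Pou2f1. The letters AAACACA are known as the H1 box. The letters GGTCCG are the core of site II of H4 genes. No motif contains another or its reverse complement. Hist1h1b lies at chr13:21780626-21780875 (- strand), Hist1h2ba at chr13:23934157-23934406 (- strand), Hist1h3d at chr13:23575513-23575762 (+ strand), Hist1h4k at chr13:21750554-21750803 (- strand) and Hist1h4d at chr13:23581318-23581567 (+ strand).
Hist1h1b: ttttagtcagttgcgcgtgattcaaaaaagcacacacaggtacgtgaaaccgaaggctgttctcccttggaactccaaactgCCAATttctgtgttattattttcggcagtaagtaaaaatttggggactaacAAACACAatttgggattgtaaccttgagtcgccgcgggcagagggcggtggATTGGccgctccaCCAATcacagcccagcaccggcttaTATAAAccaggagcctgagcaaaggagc
Hist1h2ba: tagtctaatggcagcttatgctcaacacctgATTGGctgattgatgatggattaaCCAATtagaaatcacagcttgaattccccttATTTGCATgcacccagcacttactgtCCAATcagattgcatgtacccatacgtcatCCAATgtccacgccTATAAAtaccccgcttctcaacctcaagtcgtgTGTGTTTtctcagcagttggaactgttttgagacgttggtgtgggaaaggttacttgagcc
Hist1h3d: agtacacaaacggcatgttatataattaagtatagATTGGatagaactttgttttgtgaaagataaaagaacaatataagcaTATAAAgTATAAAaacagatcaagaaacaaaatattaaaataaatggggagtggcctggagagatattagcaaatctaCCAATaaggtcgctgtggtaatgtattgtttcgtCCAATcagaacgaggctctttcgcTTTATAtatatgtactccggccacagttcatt
Hist1h4k: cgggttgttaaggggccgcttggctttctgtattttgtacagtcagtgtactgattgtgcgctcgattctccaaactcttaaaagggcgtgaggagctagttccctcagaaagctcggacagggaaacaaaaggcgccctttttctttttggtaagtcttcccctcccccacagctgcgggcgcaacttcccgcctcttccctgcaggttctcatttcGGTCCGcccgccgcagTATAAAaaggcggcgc
Hist1h4d: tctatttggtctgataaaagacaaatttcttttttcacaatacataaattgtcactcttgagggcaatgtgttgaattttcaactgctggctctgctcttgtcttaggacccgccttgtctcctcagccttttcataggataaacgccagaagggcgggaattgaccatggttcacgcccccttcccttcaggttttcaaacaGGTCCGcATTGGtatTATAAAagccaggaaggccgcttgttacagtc

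The promoter table held 63 promoters of 62 of these genes, against 32851 promoters of all genes. The CCAAT box stood in 82.5% of the histone promoters and 33.8% of all promoters. TATAAA stood in 46% against 12.4%, and the octamer in 22.2% against 1.6%. Families differed in these elements. The CCAAT box was found in all H1, H2A and H2B promoters and 80% of H3 promoters, but in 3 of 12 H4 promoters (25%), under the share of all promoters. The octamer was found in 38.9% of H2A and 41.2% of H2B promoters and in 0 of the 6 H1, 10 H3 and 12 H4 promoters. The H2A and H2B shares are not independent. In 10 pairs of an H2A and an H2B gene the starts lay 164 to 281 bases apart, so their 250-base runs overlap. A match in the overlap, on either strand, counts for each gene of the pair and again among all histone promoters. How many matches were shared in this way was not tested. AAACACA was found in 83.3% of H1 promoters against 6.25% of all. GGTCCG was found in 75% of H4 promoters against 6.72% of all. Matches of so few letters are descriptions of sequence and not evidence of binding.

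The genes lie in 4 clusters. The 40 with a probe of their own RefSeq accession include 32 of the large Hist1 cluster on chromosome 13. A further 7 belong to Hist2 on chromosome 3 and 1 (Hist4h4) to chromosome 6, and none of the Hist3 cluster had such a probe. The linker histones Hist1h1c and Hist1h1d were among the 30 genes without such a probe. Signal was well above background on all 8 arrays for 30 of the 40 genes (75%), against 71.1% of all genes with a probe. The probes of Hist2h2ab, Hist1h2bb and Hist1h3a were well above background on none. Hist1h3g was well above background in 3 Control mice and 0 Hydroxyurea mice, with means of -6.11 ± 0.56 and -7.19 ± 0.50 (SD, n = 4 each). The lowest signal that counts as well above background averaged -5.47 over the treated arrays. Both means lay under that average, so no fold is given for this gene. These 4 genes were not tested. Coding sequences of genes within a family are nearly identical, probe sequences were not used here, and a probe of 1 gene may read transcripts of its neighbours.

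Control arrays had 75th percentiles of signal from 1677 to 2417, Hydroxyurea 2 had 1052 and the other treated arrays had 1680 to 2162, and no spot was saturated. Control 1 stood apart in replicate spots, which varied by a median of 15% there and 3.79% to 4.45% elsewhere. All arrays shared 1 slide, with the Control arrays in row 1 and the Hydroxyurea arrays in row 2, so row and treatment cannot be told apart. All 8 markers of hippocampal neurons that were checked were well above background in every mouse.

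None of the 36 histone genes passed an adjusted p of 0.05 in limma with Benjamini-Hochberg adjustment, and over all genes tested 0% did. Their adjusted p-values ran from 0.572 to 0.987, and the smallest over all genes was 0.452. At an unadjusted p of 0.05 in limma, 0 of 36 were lower, against 6.36% of all genes, and 0 were higher, against 3.53%. Non-overlapping groups were seen for 0 histone genes in either direction, against 5.11% of all genes lower and 2.38% higher. Differences under 0 were found for 13 of 36, against 51.3% of all genes. The median difference was 0.028, against -0.0038 over all genes. With each array centred on its median, which moves the median of all genes to -0.086, 25 of 36 histone genes were negative and their median was -0.054.

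The precision of the fit sets how large a change could have gone unseen. The median standard error of the histone genes was 0.16, against 0.10 over all genes. For 23 of the 36 the 95% interval of the difference lay within a 1.5-fold change either way, as it did for 77.7% of all genes. A fall of 1.5-fold lay outside the interval of 32 of the 36, and a fall of 2-fold outside that of 35. The exception was Hist1h2bq, whose interval ran from -1.44 to 0.72.

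**Figure D1:**
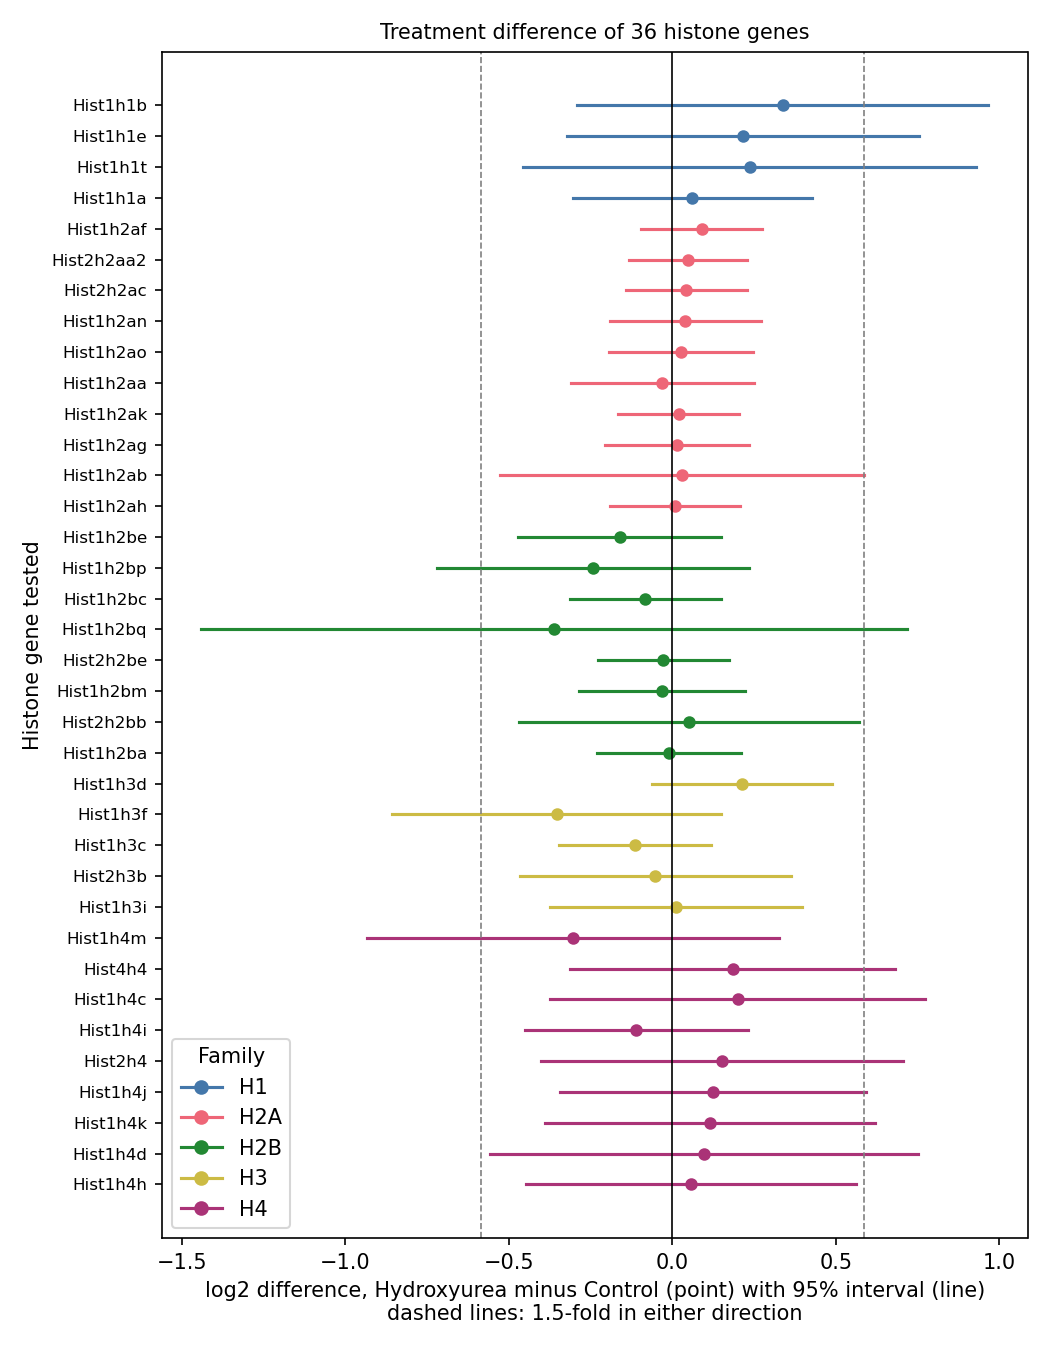
Log2 difference, Hydroxyurea minus Control, of each of the 36 histone genes tested (point) with its 95% interval (line), coloured by family; dashed lines mark a 1.5-fold change in either direction. Every interval crosses 0, all 10 H2A intervals lie inside the dashed lines and that of Hist1h2bq is the widest.

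Linker histones of the H1 family bind the DNA between nucleosomes. All 4 tested had higher means after hydroxyurea, with a median difference of 0.23, and under median centring, quantile scaling, normexp correction and the values deposited by the authors 3 of 4 did. Without Control 1, the mouse with noisier spots, 3 of 4 were higher and the median was 0.078. Hist1h1b read -3.86, -3.04, -3.06 and -2.54 in the Control mice, numbered 1 to 4, and -3.0, -2.75, -2.39 and -3.02 in Hydroxyurea mice 1 to 4. The groups overlapped, and the lowest value was that of Control 1. Its difference was 0.34 ± 0.27 (SE; limma adjusted p = 0.694), and leaving out each mouse gave 0.093 to 0.53. Hist1h1e read -0.45, -0.99, -1.34 and -0.90 in the Control mice and -0.95, -0.27, -0.52 and -1.08 in the treated mice, a difference of 0.22 ± 0.23 (limma adjusted p = 0.768). The groups overlapped over most of their range.

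Hist1h1t encodes the linker histone of the testis. Its Control values were -5.34, -4.24, -4.29 and -3.75, and its Hydroxyurea values -4.21, -3.96, -4.22 and -4.28. Control 1 was again the lowest, and without it the difference of 0.24 ± 0.30 turned to -0.076. Hist1h1a, another somatic subtype, had Control values from -5.17 to -4.72 and treated values from -5.08 to -4.47, with a difference of 0.062 ± 0.16. Its sign turned under quantile scaling, median centring, normexp correction and in the authors' deposited values.

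H2A pairs with H2B on the outer faces of the nucleosome, and it was the only family whose intervals all lay within 1.5-fold. That of Hist1h2ab, from -0.53 to 0.58, only just did. Of 10 tested, 9 had higher and 1 lower means after treatment, with a median of only 0.028 and differences from -0.031 to 0.090. Under median centring 1 was higher and 9 lower. Under quantile scaling, normexp correction and in the deposited values 8 were higher and 2 lower. The split was 2 to 8 without Hydroxyurea 2, 10 to 0 without Hydroxyurea 1 and 3 to 7 with array weights, so it turned with single mice as well. On the scaling reported, the largest fall that any of the 10 intervals allowed was 1.44-fold.

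Hist1h2af had the largest difference of the family. It read 4.64, 4.80, 4.75 and 4.65 in the Control mice and 4.65, 4.96, 4.82 and 4.77 in the treated mice, a difference of 0.090 ± 0.080 (limma adjusted p = 0.721). Hydroxyurea 2 was the highest and the rest lay within or close to the Control range. Hist2h2aa2 read 4.85, 4.91, 4.85 and 4.83 against 4.77, 5.10, 4.87 and 4.90, a difference of 0.047 ± 0.078. For Hist2h2ac the values were 4.49, 4.67, 4.60 and 4.60 against 4.52, 4.82, 4.62 and 4.58, a difference of 0.042 ± 0.080. In both genes Hydroxyurea 2 held the top value and the other treated mice overlapped the Controls.

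Hist1h2aa encodes the testis variant TH2A. It read -2.87, -2.64, -2.65 and -2.62 in the Control mice and -3.0, -2.44, -2.74 and -2.71 in the treated mice, a difference of -0.031 ± 0.12. Its highest and its lowest value both came from treated 24-week mice. Hist1h2ak has 2 probes, and they gave differences of 0.019 and -0.038, both smaller than their standard errors.

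In the H2B family 7 of 8 genes had lower means after treatment, with a median of -0.057 and differences from -0.36 to 0.051. The same split was found under quantile scaling and normexp correction, 8 of 8 were lower under median centring and 5 of 8 in the deposited values. Hist1h2be had Control values of -0.36, 0.02, -0.29 and 0.05 and treated values of -0.40, -0.10, -0.54 and -0.18. Its difference was -0.16 ± 0.13 (limma adjusted p = 0.703). The groups overlapped over most of their range.

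Hist1h2bp read -5.51, -5.04, -4.74 and -4.55 in the Control mice and -5.26, -5.31, -5.34 and -4.90 in the treated mice, a difference of -0.24 ± 0.21 (limma adjusted p = 0.707). It was well above background in 4 Control and 2 treated mice, so it sits at the edge of detection. Leaving out each mouse gave differences from -0.43 without Control 1 (limma adjusted p = 0.29) to -0.11 without Control 4 (limma adjusted p = 0.913). Hist1h2bq, also at that edge, read -5.89, -4.20, -4.02 and -4.22 against -5.83, -4.82, -4.71 and -4.41, a difference of -0.36 ± 0.47. One mouse of each group, Control 1 and Hydroxyurea 1, lay far under the others. Without Control 1 the difference was -0.80 (limma adjusted p = 0.319), and without Hydroxyurea 1 it was -0.065 (limma adjusted p = 0.97).

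Other H2B genes had smaller differences. Hist1h2bc read 4.14, 4.35, 4.30 and 4.49 in the Control mice and 4.17, 4.35, 4.07 and 4.37 in the treated mice, a difference of -0.083 ± 0.10. Apart from Hydroxyurea 3, the treated mice lay inside the Control range. Hist2h2be, whose human counterpart is known to give polyadenylated mRNA in differentiated cells, read -1.18, -1.31, -1.45 and -1.32 against -1.29, -1.22, -1.52 and -1.33, a difference of -0.027 ± 0.087. Hist1h2ba, the testis variant TH2B whose promoter is shown above, read 2.58, 2.60, 2.64 and 2.76 against 2.58, 2.77, 2.41 and 2.78. Its difference was -0.010 ± 0.095, and the treated span enclosed the Control span. Hist1h2bm, another H2B gene, read 2.61, 2.81, 2.83 and 2.98 against 2.67, 2.89, 2.58 and 2.95, with the same order of mice within each group. Whether the Hist1h2ba probe reads transcripts of other H2B genes was not tested.

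H3, with H4, forms the core of the nucleosome. Of 5 genes tested, 2 had higher and 3 lower means, with a median of -0.053, and under median centring, quantile scaling and in the deposited values 1 was higher and 4 lower. Hist1h3d had the smallest unadjusted p of the 36 genes in limma. It read 2.90, 3.42, 3.12 and 3.31 in the Control mice and 3.40, 3.56, 3.32 and 3.32 in the treated mice, a difference of 0.21 ± 0.12 (limma adjusted p = 0.572). All 4 treated mice lay above Control 1, 3 and 4, and Control 2 lay above 3 of them.

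Hist1h3f went the other way. Its values were -4.80, -4.63, -4.18 and -4.23 in the Control mice and -4.60, -5.19, -5.09 and -4.38 in the treated mice, a difference of -0.35 ± 0.22 (limma adjusted p = 0.599). Hydroxyurea 2 and 3 were the lowest of all 8 mice, and Hydroxyurea 1 and 4 lay inside the Control range. Signal of this dim gene was well above background in 4 Control and 3 treated mice. Hist1h3c read 0.14, 0.33, 0.49 and 0.37 against 0.38, 0.09, 0.09 and 0.29, a difference of -0.11 ± 0.10 (limma adjusted p = 0.718).

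Hist2h3b read -1.95, -1.56, -1.84 and -1.51 in the Control mice and -1.96, -1.27, -1.97 and -1.87 in the treated mice. Hydroxyurea 2 was the highest of all mice, and the other treated mice lay at the low end. Its difference was -0.053 ± 0.18, and -0.22 without Hydroxyurea 2. Hist1h3i, a dim gene, read -5.14, -4.63, -5.02 and -4.66 against -5.24, -4.66, -4.67 and -4.83, a difference of 0.011 ± 0.17. Its sign turned under median centring, quantile scaling and normexp correction and in the deposited values.

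**Figure D2:**
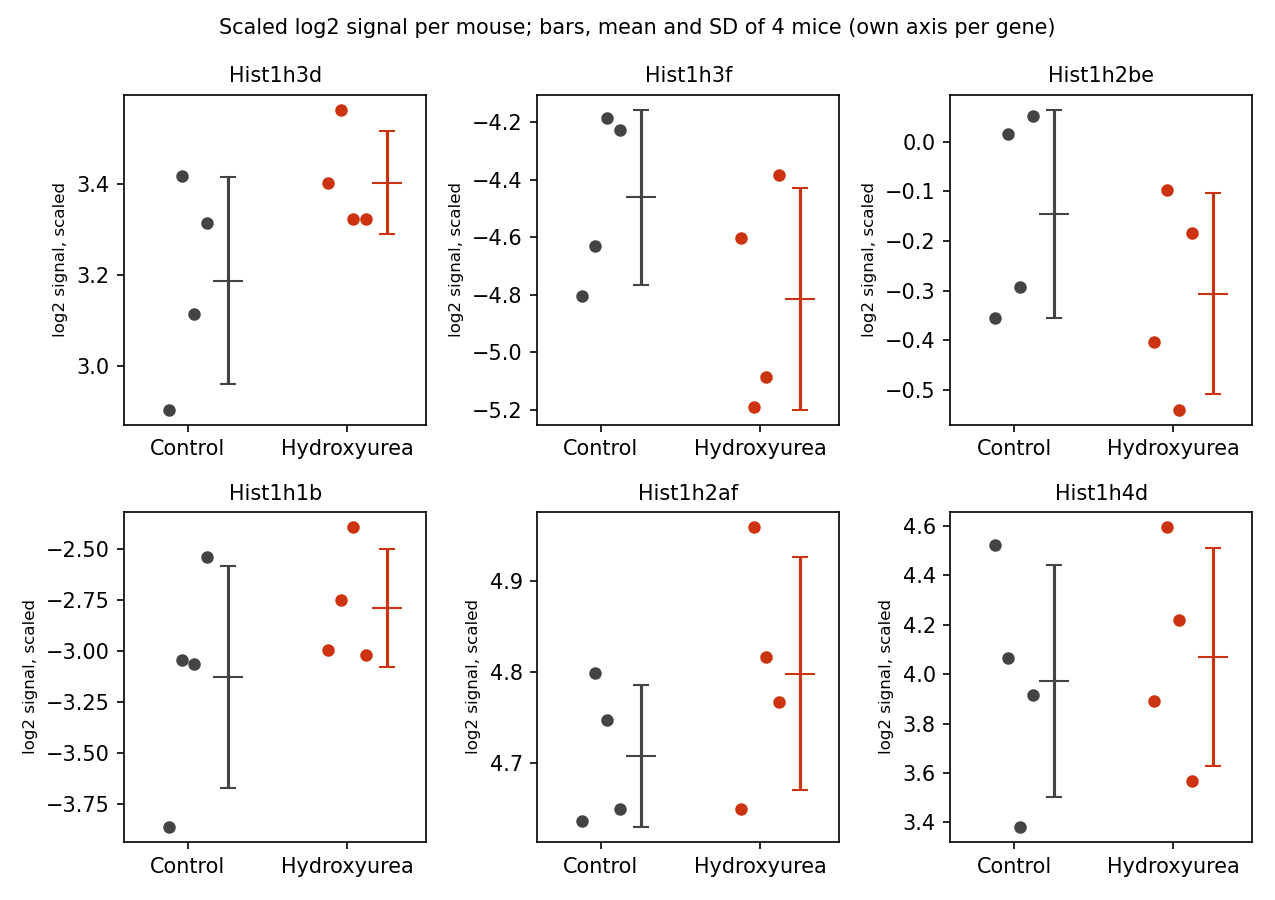
Scaled log2 signal of 6 histone genes in each mouse (points) with the mean and SD of 4 mice (bars), each gene on its own axis. The Control and Hydroxyurea mice overlap in every panel; Hist1h3d lies between 2.90 and 3.56 and Hist1h3f between -5.19 and -4.18.

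H4 genes spread widely between mice of both groups. Of 9 tested, 7 had higher and 2 lower means, with a median of 0.12. The split was 6 to 3 under median centring and in the deposited values. It was 2 to 7 among 19-week mice only, and 1 to 8 without Hydroxyurea 2. Hist1h4d had Control values of 4.52, 4.06, 3.38 and 3.92 and treated values of 3.89, 4.60, 4.22 and 3.57, a difference of 0.097 ± 0.28. The highest and lowest Control mice were more than 1 log2 unit apart.

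Hist1h4k, whose promoter is shown above, had the same order of mice. It read 3.32, 3.20, 2.63 and 3.0 in the Control group and 2.96, 3.64, 3.26 and 2.75 in the treated group, a difference of 0.12 ± 0.22. Hist2h4 read 3.21, 2.97, 2.38 and 2.81 against 2.83, 3.50, 3.12 and 2.53, a difference of 0.15 ± 0.24. In each of these genes Control 3 was the lowest and Hydroxyurea 2 the highest. The second probes of Hist1h4d, Hist1h4k and Hist2h4 gave differences of 0.12, 0.14 and 0.18.

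Hist4h4, the only one of the 40 clustered histone genes that lies on chromosome 6, read 0.66, 0.65, 0.09 and 0.70 in the Control mice and 0.42, 1.20, 0.83 and 0.38 in the treated mice, a difference of 0.18 ± 0.22 (limma adjusted p = 0.786). Hist1h4c read -2.76, -2.72, -3.13 and -2.92 against -3.09, -1.98, -2.57 and -3.09, a difference of 0.20 ± 0.25. Control 3 was again the lowest and Hydroxyurea 2 the highest in both. Hist1h4i read -2.68, -2.29, -2.62 and -2.25 against -2.74, -2.22, -2.72 and -2.60, a difference of -0.11 ± 0.15. This gene and the dim Hist1h4m were the only H4 genes with negative differences.

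The heat map of deviations shows the same mouse on top in several families. Hydroxyurea 2 held the highest value for 9 of 10 H2A genes and 7 of 9 H4 genes, and over all genes it was the highest for 15.1%. Hydroxyurea 1 held the lowest value for 8 of 10 H2A genes, against 7.88% of all genes. Control 3 was the lowest for 7 of 9 H4 genes, against 19.7% of all genes. In H2B, Control 4 was the highest for 4 of 8 genes and Hydroxyurea 3 the lowest for 5 of 8. Genes of 1 family can share probe targets, so these counts are not independent observations.

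**Figure D3:**
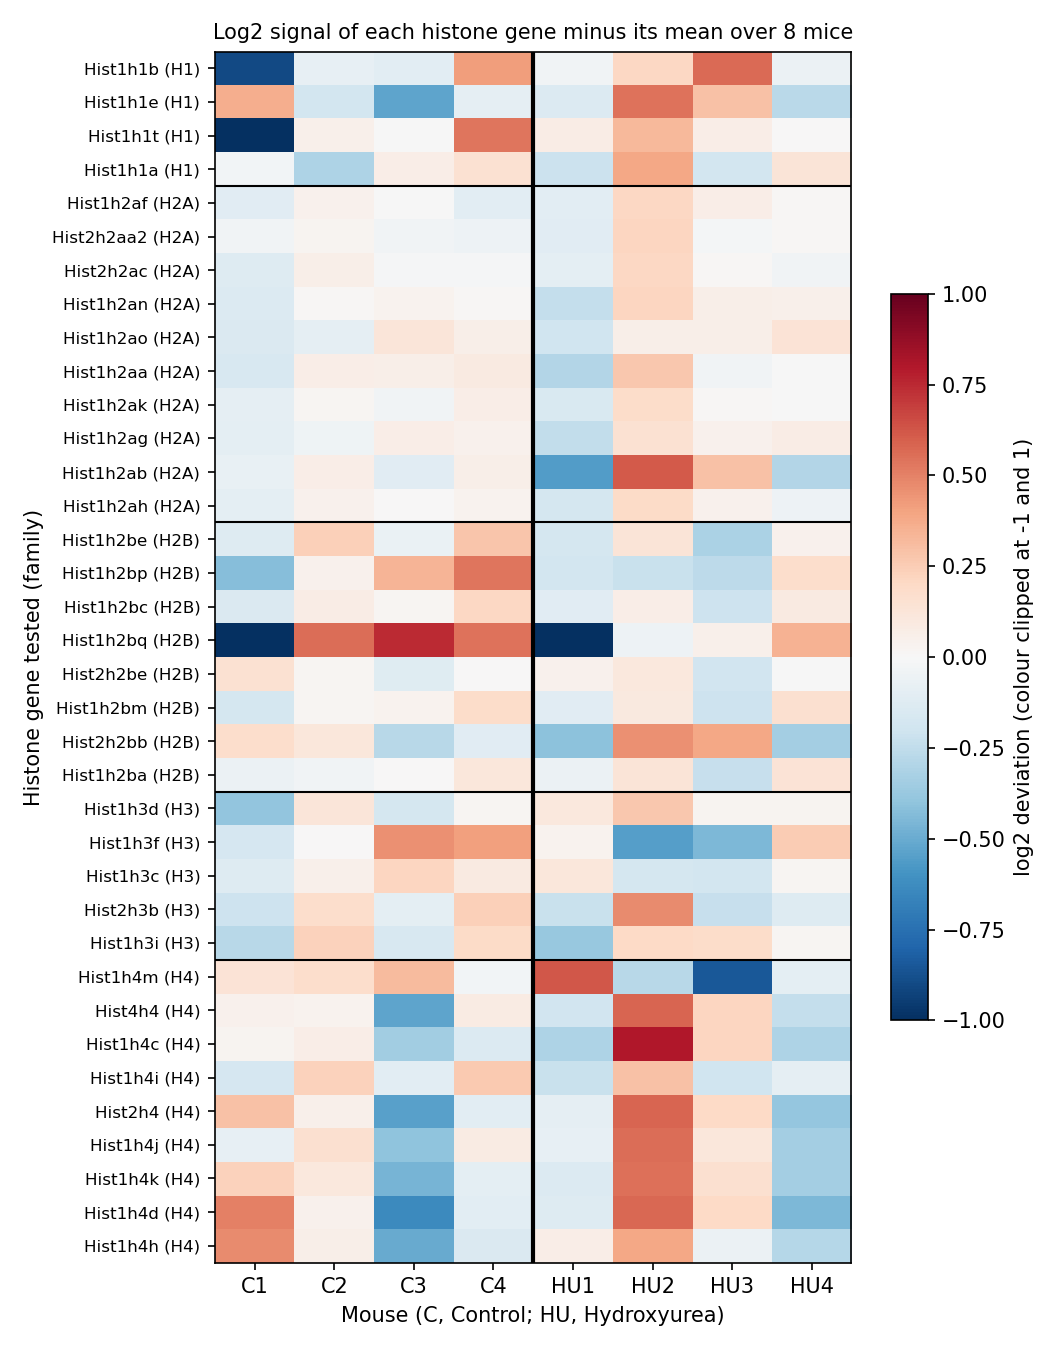
Log2 signal of each of the 36 histone genes minus its own mean over 8 mice, with mice in columns and genes grouped by family; the colour is clipped at -1 and 1. The Hydroxyurea 2 column is high across H2A and H4, where it holds the top value for 9 of 10 and 7 of 9 genes, and Control 3 is low across H4.

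Averaged over the 36 genes, the deviation of a mouse from the gene means was -0.12, 0.062, -0.077 and 0.10 in the Control mice and -0.15, 0.24, -0.0099 and -0.056 in the treated mice. Over all genes tested it lay between -0.068 and 0.039. Both ends of the histone range were treated mice of 24 weeks. The H4 mean ran from -0.36 in Control 3 to 0.45 in Hydroxyurea 2, and the H2A mean from -0.22 in Hydroxyurea 1 to 0.23 in Hydroxyurea 2. Hydroxyurea 2 was also the array with the lowest 75th percentile of signal, whose part in its high values was not tested. Without Hydroxyurea 2, 29 of 36 genes had negative differences and the median was -0.055. Without Hydroxyurea 1, 9 had negative differences and the median was 0.095. Without Control 1, the mouse with noisier spots, 18 were negative and the median was -0.0030. The number passing the adjusted p in limma was 0 in each of these fits, and 0 were higher at an unadjusted p of 0.05. At that p 0 were lower without Hydroxyurea 2, 1 without Hydroxyurea 1 (Hist1h4m) and 2 without Control 1 (Hist1h2bp and Hist1h2bq). The shares over all genes in these fits are not given, so nothing about the histone genes is read from these counts.

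**Figure D4:**
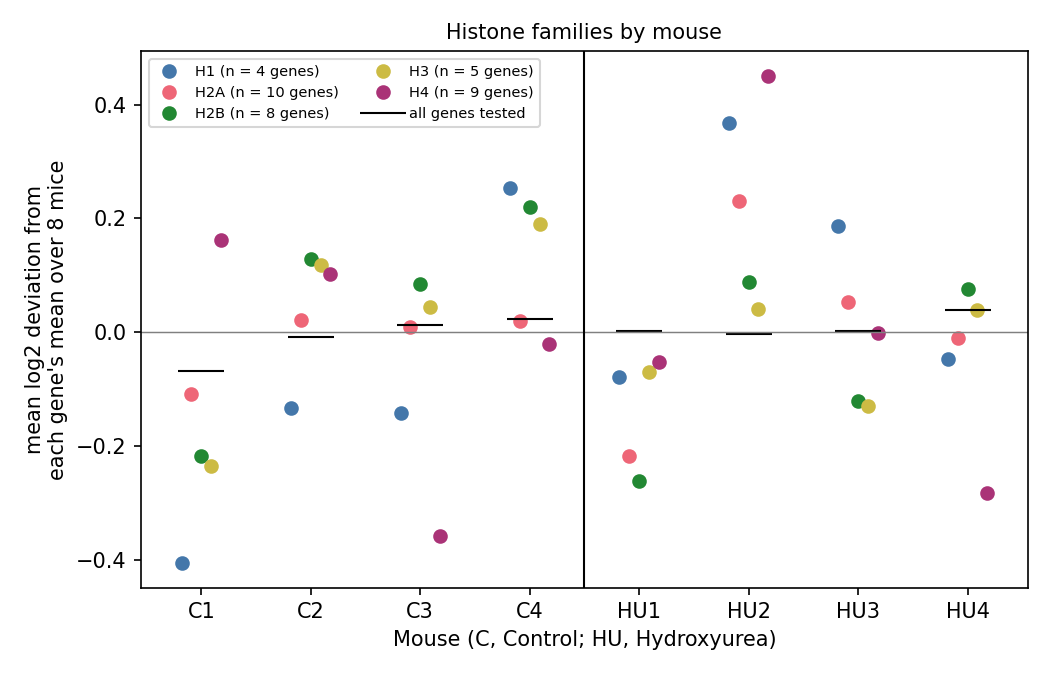
Mean log2 deviation of each histone family from the gene means in each mouse (coloured points), with the mean over all genes tested (black bars). Family means spread from -0.41 (H1 in Control 1) to 0.45 (H4 in Hydroxyurea 2), and the all-gene means stay between -0.068 and 0.039.

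**Figure D5:**
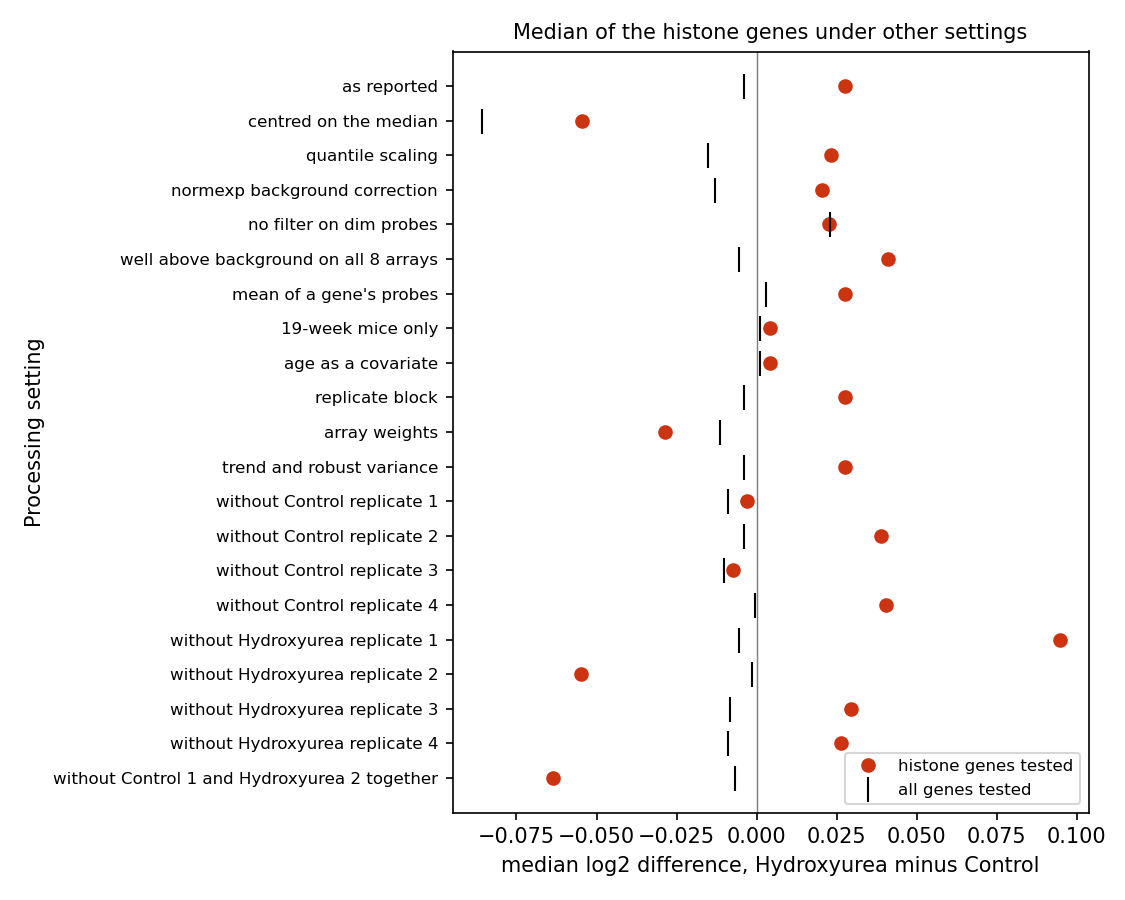
Median log2 difference, Hydroxyurea minus Control, of the histone genes tested (red points) and of all genes tested (black ticks) under each processing setting. The values deposited by the authors, in z units, are not shown. The histone median runs from -0.064 without Control 1 and Hydroxyurea 2 together to 0.095 without Hydroxyurea 1, on both sides of 0.

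Age was compared within the treated group, 24-week against 19-week mice (n = 2 each), in a fit over all 8 arrays. No histone gene passed an adjusted p of 0.05 in limma, and over all genes 0% did. At an unadjusted p of 0.05, 0 of 36 were higher at 24 weeks, against 1.26% of all genes, and 0 were lower, against 1.44%. The differences were positive for 28 and negative for 8, with a median of 0.062, against -0.019 over all genes. The 24-week group consists of the mice with the highest and the lowest histone means, so its mean averages opposite deviations.

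The smallest p for age was that of the dim Hist1h4m. It read -5.30, -5.26, -5.12 and -5.46 in the Control mice, -4.82 and -5.72 in the 24-week treated mice and -6.28 and -5.54 in the 19-week treated mice. Its age difference was 0.64 ± 0.33 and its treatment difference -0.30 ± 0.27 (SE; limma adjusted p = 0.725 for treatment). Among 19-week mice only, the treatment difference was -0.62 with an unadjusted p of 0.0288 and an adjusted p of 0.723 in limma. Leaving out each mouse of the full set moved the treatment difference from -0.56 without Hydroxyurea 1 to -0.072 without Hydroxyurea 3. It was well above background in 2 of the 4 treated mice.

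The next genes by age were Hist2h2be, with 0.17 ± 0.11, Hist1h4h, with 0.40 ± 0.29, and Hist1h4j, with 0.35 ± 0.28. Hist1h4h read -1.42 and -1.10 at 24 weeks against -1.55 and -1.77 at 19 weeks, and the Control mice, all of 19 weeks, ran from -1.99 to -1.02. Hist1h4j read -1.77 and -1.13 against -1.58 and -2.03, with Control values from -2.09 to -1.53. The untreated mice covered the treated range of Hist1h4h and, apart from Hydroxyurea 2, that of Hist1h4j. Treatment differences of the 2 genes were 0.058 ± 0.22 and 0.12 ± 0.20. In 19-week mice alone, or with age as a covariate, the median treatment difference of the 36 genes was 0.0042 and 17 were negative.

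Many H2A and H2B genes are transcribed away from each other from a shared promoter. Among RefSeq genes 10 such pairs had starts 164 to 281 bases apart, and in 3 both genes were tested. Hist1h2aa and Hist1h2ba differed by -0.031 ± 0.12 and -0.010 ± 0.095 after treatment, and the Hist1h2ba probe may read other H2B transcripts. In the other two pairs the H2B gene was not well above background on every array. Hist1h2an differed by 0.039 ± 0.10 and its neighbour Hist1h2bp by -0.24 ± 0.21. Hist1h2ao differed by 0.026 ± 0.095 and its neighbour Hist1h2bq by -0.36 ± 0.47. In none of the 3 did either gene differ beyond the spread between mice.

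The genes that make, package and replace these histones were read from 5 further lists. None of their genes passed an adjusted p of 0.05 in limma. At an unadjusted p of 0.05 in limma, 1 variant was higher, and 2 processing genes, 1 transcription gene and 2 chaperones were lower. Over all genes 3.53% were higher and 6.36% lower at that p. Groups did not overlap for 1 variant and 1 chaperone, which were higher. They also did not overlap for 3 processing genes, 1 transcription gene and 1 chaperone, which were lower. The shares over all genes were 2.38% higher and 5.11% lower without overlap. Most replication-independent variants are polyadenylated and are also made outside S phase. Of 11 tested, 6 were higher and 5 lower, with a median of 0.015, and under median centring 1 was higher and 10 lower. Macroh2a1, which encodes the macroH2A1 variant, read 1.61, 1.77, 1.59 and 1.69 in the Control mice and 1.84, 1.88, 1.99 and 1.86 in the treated mice. The groups did not overlap, and the difference was 0.23 ± 0.066 (limma adjusted p = 0.453). H2ax, whose phosphorylated protein marks DNA breaks, had a difference of -0.12 ± 0.084. For H2az2, an H2A.Z gene, it was -0.078 ± 0.065.

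Histone mRNA processing and decay had 15 genes tested, 5 higher and 10 lower, with a median of -0.052, and under normexp correction 7 were higher and 8 lower. Slbp itself read -0.34, -0.44, -0.32 and -0.62 in the Control mice and -0.30, -0.76, -0.53 and -0.34 in the treated mice, a difference of -0.052 ± 0.12. Cpsf2, a subunit of the cleavage complex, read 1.21, 1.23, 1.18 and 1.17 against 1.08, 0.91, 1.03 and 1.06, without overlap. Its difference was -0.18 ± 0.059 (limma adjusted p = 0.476). Zfp473, a zinc finger protein of the same machinery, read -3.63, -3.56, -3.64 and -3.47 against -3.66, -3.74, -3.78 and -3.98, also without overlap, a difference of -0.22 ± 0.083 (limma adjusted p = 0.491). Fip1l1, a polyadenylation factor, differed by -0.23 ± 0.11.

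Transcription factors and coactivators of the histone genes gave 5 higher and 7 lower of 12 tested, with a median of -0.063. The split was 7 higher and 5 lower with the mean of the probes of a gene. Npat, the histone-specific coactivator, was too dim to test. Pou2f1, whose product Oct1 binds the octamer, read 1.42, 1.47, 1.61 and 1.46 in the Control mice and 1.27, 1.39, 1.40 and 1.06 in the treated mice, a difference of -0.21 ± 0.090 (limma adjusted p = 0.506). Its sign turned with the mean of its probes, to 0.017. Gon4l, a nuclear regulator of transcription, and E2f4, a repressor of cell cycle genes, differed by -0.16 ± 0.10 and 0.16 ± 0.10.

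Histone chaperones, which carry histones to DNA, gave 13 higher and 5 lower of 18, with a median of 0.060, and 9 higher and 9 lower under median centring. Rbbp7, a histone-binding protein of several chromatin complexes, differed by -0.18 ± 0.066 and Ubn1, of the H3.3 chaperone complex, by -0.16 ± 0.064 (limma adjusted p = 0.484 and 0.493). Mcm2, a helicase subunit that also binds histones, read -2.54, -1.96, -2.17 and -1.84 in the Control mice and -1.84, -1.81, -1.75 and -1.82 in the treated mice, a difference of 0.33 ± 0.14 (limma adjusted p = 0.509).

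S phase and replication genes, which rise with the histones in dividing cells, gave 8 higher and 21 lower of 29 tested, with a median of -0.057. Under median centring the split was 3 to 26, and 0 of the 29 reached an unadjusted p of 0.05 in limma. Mcm6, a helicase subunit, differed by -0.25 ± 0.11, the licensing factor Cdc6 by -0.32 ± 0.16 and the DNA ligase Lig1 by 0.16 ± 0.094.

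Of 8 markers of dividing cells 5 were tested, 4 with higher and 1 with lower means and a median of 0.10. The split was 3 to 2 under median centring and 1 higher to 4 lower in the deposited values. At an unadjusted p of 0.05 in limma 1 was higher, the cyclin gene Ccnb1 with 0.49 ± 0.19 (limma adjusted p = 0.491), and 0 were lower. The lower one was Birc5, a mitotic survivin gene, with -0.21 ± 0.12, the largest single part of the summed signal. Top2a, Cdk1 and Cenpf were well above background on at most 2 of 8 arrays. The summed signal of all 8, relative to the 75th percentile of the array, was 0.719 to 0.935 in the Control mice and 0.808 to 0.885 in the treated mice. The highest treated sum, in Hydroxyurea 1, includes a Cenpf value of -2.96. Cenpf read -7.14 to -6.53 in the other treated mice and -8.19 to -5.39 in the Control mice. Markers of some other cell types had higher means in the treated group. All 8 choroid plexus markers had higher means after treatment, with summed signals of 7.66 to 101 in the Control mice and 16.4 to 203 in the treated mice. These sums overlapped, and 0 of the 8 were higher at an unadjusted p of 0.05 in limma. All 8 leukocyte markers had higher means, with summed signals of 1.55 to 2.29 and 2.31 to 2.89, without overlap. At an unadjusted p of 0.05 in limma 4 of the 8 were higher, against 3.53% of all genes. Groups did not overlap for 3, against 2.38% of all genes. None passed an adjusted p of 0.05, and 5 of the 8 were well above background on all arrays. Sums also overlapped for red cells (74.1 to 102 and 65.0 to 135), microglia (32.9 to 37.5 and 32.1 to 39.0) and oligodendrocyte precursors (2.67 to 3.05 and 2.84 to 3.02). In bulk tissue fewer cells of a type and less RNA per cell cannot be told apart, and the part of these markers in the histone values was not tested.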

How the data were processed

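Feature Extraction 12.0.3.1 read the scans, per the file headers, and the deposited files give each spot's processed signal intensity, with its median signal and local background intensity, not scaled between arrays. A table of values from the authors, also deposited, holds a score that differed by at most 0.00502 from a z score of the log signal within the array; its column medians ran from -0.21 to -0.17, and it was used as an alternative. The headers name mm9 (NCBI37), so only promoters from the RefSeq table carry coordinates (GRCm38.p6).

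Log2 of the processed signal was scaled to the 75th percentile of each array. Outlier spots were left out and spots of a probe averaged. RefSeq accessions named 21368 genes through 28331 of 55681 probes. The probe with the highest mean stood for a gene, which was tested if at least 4 of 8 arrays had it well above background and 6 had a value. Groups were compared with limma 3.58.1 (R 4.3.3), two-sided, Benjamini-Hochberg adjusted over 16619 genes, and intervals are 95%. p-values measure the spread between these mice. The number of arrays limits the precision. The fit was tested on simulated data.

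The members and lists were chosen with earlier results of these data known. Named are the 12 genes of smallest treatment p, then 2 per family, testis histones, those dim in 1 group, 3 with the largest spread between probes, 4 by age p, and 3 per list by p. Hist1h4k, Hist1h2ab, Hist1h2an, Hist1h2ao, Hist1h2bm and Slbp were chosen after their values were seen. The markers, the genes without a test and the promoters printed were also chosen after their values or letters were seen. Alternatives covered scaling, background, filters, probes, age, the replicate block, array weights, variance model and leaving out arrays.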

Additional observations from a re-analysis of the deposited data

Results flagged for a closer look

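In 6 of 88 groups of 4 mice 1 value stood apart from the others by Dixon's 95% limit, of which chance gives about 1 in 20, and Control 1 was that mouse in 4. In the Control group, Hist4h4 was 0.086 in Control 3 against 0.65 to 0.70 elsewhere. Control 1 was low for Hist1h2bq (-5.89) and for the testis histone Hist1h2aa (-2.87). It was also low for the chaperone Rbbp7 (4.38) and high for the transcription factor Gon4l (-0.64). In the Hydroxyurea group, Hydroxyurea 2 was high for Hist2h3b, at -1.27.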

How the results depend on the processing

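No histone gene passed an adjusted p of 0.05 in limma under any alternative run, nor 0.10 in the fit as reported. Of 896 values of 43 named genes, 823 kept their sign and side of the threshold, 73 turned sign and 0 passed; the lowest adjusted p was 0.124. At an unadjusted p of 0.05, lower genes numbered 4 with array weights, 2 without Control 1 and Hydroxyurea 2 together (chosen after seeing the data), 1 with normexp, 1 without a filter (Hist1h3g) and 1 in 19-week mice. Higher genes numbered 2 in the value table and 1 without a filter (Hist1h3a). Leaving out each mouse gave 0 (without Control 2) to 2 (without Control 1) lower and 0 to 1 (without Control 2) higher. Shares over all genes at that p are not given for these alternatives, so nothing about the histone genes is read from these counts. For age, leaving out a mouse gave 0 to 7 genes of all called (7 without Hydroxyurea 4). The replicate numbers do not pair the mice (correlations from -0.21 to 0.20); with the replicate block the histone median stayed 0.028 and 0 genes were called.

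These signs turned, and the cause was not tested. Median centring: Hist1h1a -0.020, Hist2h2aa2 -0.035, Hist2h2ac -0.040, Hist1h3i -0.071, Hist1h2ak -0.063, Hist1h4h -0.024. Quantile scaling: Hist1h1a -0.025, Hist1h3i -0.079, Hist1h2ba 0.020. Normexp: Hist1h1a -0.097, Hist2h3b 0.013, Hist1h3i -0.11, Hist1h2ba 0.036, Hist1h2ak -0.037. Value table, in z units: Hist1h2bc 0.015, Hist1h1a -0.040, Hist1h3i -0.053, Hist1h2ba 0.018, Hist1h4h -0.0025, H2az2 0.0075. Mean of probes: Hist1h2ak -0.0094, Pou2f1 0.017, Gon4l 0.0032. Mice of 19 weeks, or age as a covariate: Hist1h2bq 0.019, Hist2h4 -0.016, Hist1h4d -0.077, Hist1h4h -0.14, Hist1h4j -0.054. Array weights: Hist1h1t -0.10, Hist2h2ac -0.014, Hist1h3i -0.15, Hist1h2ak -0.041, Hist1h4j -0.013. Without Control 1 and Hydroxyurea 2: Hist1h1t -0.15, Hist1h1a -0.057, Hist2h2aa2 -0.021, Hist2h2ac -0.054, Hist1h3i -0.14, Hist1h2ak -0.064, Hist1h4j -0.049. Leaving out each mouse gave ranges of -0.058 to 0.14 for Hist1h1a, -0.076 to 0.45 for Hist1h1t, -0.12 to 0.062 for Hist1h2aa, -0.038 to 0.072 for Hist1h2ak and -0.058 to 0.064 for Hist1h2ba. They were -0.080 to 0.14 for Hist1h3i, -0.035 to 0.34 for Hist1h4c, -0.10 to 0.28 for Hist1h4d, -0.10 to 0.22 for Hist1h4h and -0.042 to 0.26 for Hist1h4j. They were -0.018 to 0.093 for Hist2h2aa2, -0.019 to 0.082 for Hist2h2ac, -0.072 to 0.032 for Hist2h2be, -0.22 to 0.017 for Hist2h3b and -0.016 to 0.31 for Hist2h4. Signal near background limits Hist1h2bp, Hist1h2bq and Hist1h4m. It also limits Hist1h1a, Hist1h3f and Hist1h3i, each well above background in 3 treated mice.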
